A study of Mus musculus with 79 samples.

Results

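Interferon-stimulated genes are switched on in most cells by interferons, and 9 of them were followed here in the whole lungs of mice exposed to cigarette smoke. They were chosen by name, as Ifit1, Ifit3, Isg15, Irf7, Oas1a, Mx1, Rsad2, Usp18 and Ifi44, and all 9 were found among the 31350 genes of the array table, each in a single row. RNA from the whole right lung of each of 79 mice was hybridized to its own microarray. Genotype, exposure, sex and duration of exposure split the mice into 16 groups, the smallest of 4 and the largest of 6. The mice were C57BL/6J animals of 5 to 7 weeks of age. WT mice were compared with βENaC littermates, which carry a Scnn1b transgene for the beta subunit of the epithelial sodium channel. In this line a club cell promoter directs the transgene to the airway epithelium, and the mice are used as a model of mucus obstruction. Smoke-exposed mice breathed the smoke of 6 reference cigarettes per day, sham-exposed mice breathed room air in the same chamber, and lungs were taken 4 hours after the last exposure. After 1 day there were 20 smoke-exposed and 20 sham-exposed mice. After 5 consecutive days there were 19 and 20. The design asks whether smoke, genotype and sex, each on its own, moved these genes, and whether the response to smoke changed between the durations.

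Type I interferons bind a receptor formed by Ifnar1 and Ifnar2, which activates Jak1 and Tyk2 and leads to a transcription factor complex that holds Stat2 and Irf9. That complex binds the interferon-stimulated response element and switches on the genes studied here. Irf7 is itself a transcription factor that drives further interferon production. Ifit1 and Ifit3 bind foreign RNA, Oas1a makes the messenger that activates RNase L, Mx1 is a dynamin-like GTPase that blocks influenza viruses, and Rsad2 (viperin) makes a nucleotide that stops viral RNA synthesis. Isg15 is a ubiquitin-like modifier, and Usp18 removes it from proteins and also silences the receptor. Ifi44 is an interferon-induced protein of the cytoplasm whose role is less settled. Common laboratory strains carry a defective Mx1, and RefSeq lists it in this strain as a transcribed pseudogene, so that its level is a readout of transcription only. In the lung these genes mark virus infection and the state of myeloid cells such as monocytes, which keep some of them switched on at rest.

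The shared control element could be read from RefSeq promoter sequences of the mouse build GRCm38.p6, which hold 7 of the 9 genes. Mx1 and Usp18 had no entry. Within the 250 bases before the start site, the letters GAAA, then any 2 bases, then GAAA again, a core of the interferon-stimulated response element, were searched on both strands with overlapping matches counted. They occurred in 5 of these 7 genes (Ifit1, Ifit3, Isg15, Oas1a and Rsad2) and not in Irf7 or Ifi44. Of all 32851 promoter windows of that length, 2.98% held them. Of 36 other type I interferon-stimulated genes on the array, 27 had a promoter entry, and 6 of these held the letters. The 160 bases just before the start are shown for 4 genes that behaved differently from each other below, a gene that rose with smoke (Rsad2), a gene that fell (Oas1a), a gene that did not pass the test but tracked the other members (Isg15), and a gene whose correlations with the other members did not pass (Ifit3). Each runs 5′ to 3′ on the gene's strand, and capitals mark the matches.
Rsad2 (chr12:26456453-26456612, minus strand): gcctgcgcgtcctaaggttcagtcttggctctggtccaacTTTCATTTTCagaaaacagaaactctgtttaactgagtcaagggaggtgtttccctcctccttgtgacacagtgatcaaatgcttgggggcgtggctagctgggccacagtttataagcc
Oas1a (chr5:120907526-120907685, minus strand): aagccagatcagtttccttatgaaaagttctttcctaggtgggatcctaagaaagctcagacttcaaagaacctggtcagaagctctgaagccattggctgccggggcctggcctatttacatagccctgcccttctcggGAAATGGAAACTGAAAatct
Isg15 (chr4:156200819-156200978, minus strand): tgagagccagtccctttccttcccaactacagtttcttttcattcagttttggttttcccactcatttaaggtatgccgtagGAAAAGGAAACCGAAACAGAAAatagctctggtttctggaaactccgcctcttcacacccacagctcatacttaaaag
Ifit3 (chr19:34583369-34583528, plus strand): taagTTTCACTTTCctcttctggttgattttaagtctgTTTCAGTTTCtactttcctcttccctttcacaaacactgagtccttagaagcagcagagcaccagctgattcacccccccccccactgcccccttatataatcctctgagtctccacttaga
Isg15 held 3 overlapping matches, the nearest ending 56 bases before the start. Ifit3 and Oas1a held 2 each, the nearest at 112 and 4 bases, and Rsad2 held 1 at 110 bases. A match of letters describes the sequence and shows no binding.

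The authors deposited normalized log2 intensities, which ran from 1.98 to 13.4, and array medians lay between 4.44 and 4.55. No pair of arrays was identical, and correlations between arrays were at least 0.965. Surfactant genes, which mark alveolar epithelium, were near the top of the scale (Sftpc 12.7, Sftpb 12.4), as whole lung requires. Scnn1b was higher in all 39 βENaC mice than in any WT mouse. Cyp1a1, the classic target of the aryl hydrocarbon receptor, was higher in all 39 smoke-exposed mice than in any sham-exposed mouse. The authors had removed 1 array as mislabelled for exposure from plasma cotinine and gene expression, so this separation was in part set beforehand. Groups followed the sample titles and characteristics, since the source names of 13 of the 19 WT smoke-exposed mice call them βENaC. Levels of different genes on an array depend on their probes, so each gene is compared only with itself across mice. In whole lung, fewer cells of a type and less RNA per cell cannot be told apart.

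After 5 days of smoke, 4 of the 9 genes passed the test for exposure, which was a Benjamini-Hochberg adjusted p below 0.05 and a coefficient beyond 0.379 on the log2 scale (1.3-fold) in limma. Rsad2 rose, and Oas1a, Mx1 and Ifi44 fell. The other 5 genes had coefficients between -0.26 and -0.01 and did not pass. Of all genes tested, 1.15% passed for exposure at 5 days, 0.577% in each direction. The 9 genes were chosen with earlier results of these data known, so a higher share among them may in part be set by the choice. The median coefficient of the 9 genes was -0.17 and 8 of the 9 were negative, where the median of all genes was -0.0018 and 51.1% were negative. Most of the 9 genes varied together between mice, so these signs are not 9 separate results. Without WT smoke-exposed female replicate 2, Ifit3 measured 0.011 and Isg15 -0.015. The plot of values by mouse shows all 9 genes, and the plot of exposure coefficients sets the durations side by side.

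**Figure D1:**
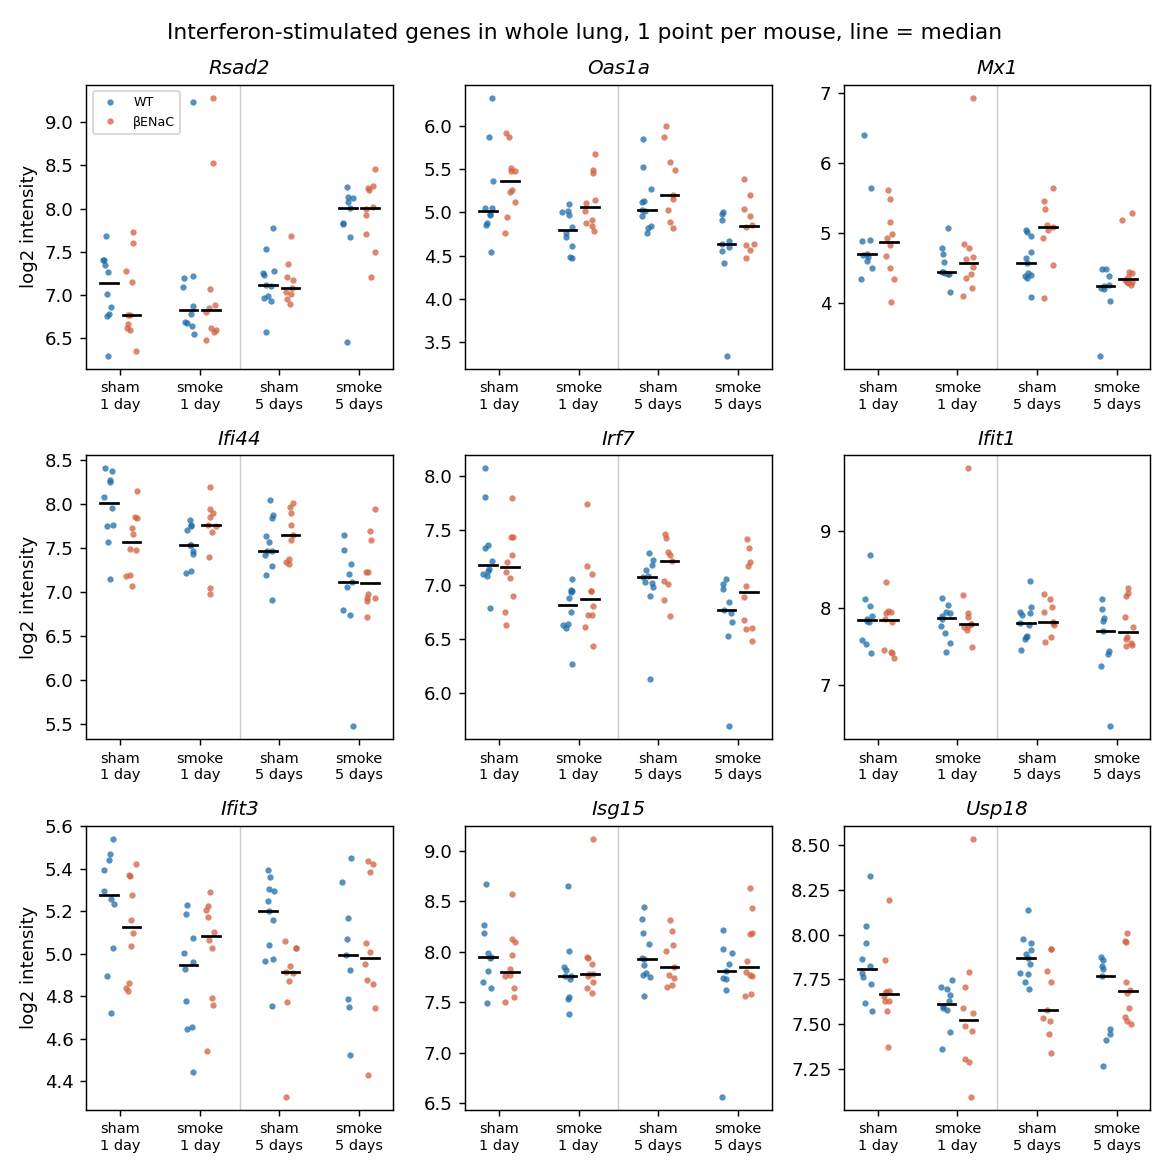
Log2 intensity of each of the 9 genes in every mouse (1 point per mouse, WT in blue and βENaC in orange, black line for the median of each group of 9 to 11 mice), by exposure and duration. At 5 days Rsad2 lay higher in smoke-exposed mice (median 8.01 against 7.11), and at 1 day 3 smoke-exposed mice stood at 8.52 to 9.28.

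Rsad2, the antiviral enzyme viperin, gave the largest coefficient of the 9. In WT mice at 5 days it ran from 6.58 over a median of 7.12 to 7.77 in 11 sham-exposed mice, and from 6.46 over 8.01 to 8.25 in 9 smoke-exposed mice. In βENaC mice it ran from 6.90 over 7.08 to 7.68 in 9 sham-exposed mice, and from 7.21 over 8.01 to 8.45 in 10 smoke-exposed mice. Of the 19 smoke-exposed mice, 14 lay above the highest sham-exposed mouse, 18 lay above the sham mean of their own genotype and sex, and 1 lay below every sham-exposed mouse. The coefficient was 0.74 ± 0.10 (SE), which is 1.67-fold, with an adjusted p of 3.85e-06 from limma. The rise held within each genotype and sex, at 0.66 in WT mice, 0.82 in βENaC mice, 0.66 in females and 0.82 in males, with adjusted p-values from limma between 0.000762 and 0.00836. In these 4 subsets 0.915%, 0.797%, 0.778% and 0.855% of all genes passed. Without the single low mouse, WT smoke-exposed female replicate 2, the coefficient was 0.81 ± 0.08. The Rsad2 row is the only member row identified by an Ensembl transcript, where the others carry RefSeq transcripts. How well it reads Rsad2 was not tested.

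After 1 day, most smoke-exposed mice showed no rise of Rsad2. Sham-exposed mice ran from 6.30 over 6.94 to 7.72 and smoke-exposed mice from 6.48 over 6.83 to 9.28, and 16 of the 20 smoke-exposed mice lay below the sham mean of their own genotype and sex. A WT female (9.23), a βENaC female (8.52) and a βENaC male (9.28) lay above every sham-exposed mouse. The coefficient was 0.12 ± 0.21 with an adjusted p of 0.814 in limma, and without the WT female or without the βENaC male it was within 0.01 of 0. The difference between durations was 0.62 ± 0.24 on the log2 scale and had an adjusted p of 0.207 in limma, so the rise was not shown to differ between 1 and 5 days. Of all genes, 1.3% passed that test and none of the 9 did, and only Rsad2 among them had an unadjusted p below 0.05, as did 12.3% of all genes.

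Oas1a, an oligoadenylate synthetase, fell most. In WT mice at 5 days it ran from 4.77 over 5.02 to 5.85 in sham-exposed and from 3.34 over 4.64 to 5.00 in smoke-exposed mice. In βENaC mice it ran from 4.82 over 5.20 to 6.00 in sham-exposed and from 4.47 over 4.84 to 5.39 in smoke-exposed mice. All 19 smoke-exposed mice lay below the sham mean of their own genotype and sex, and 10 lay below every sham-exposed mouse. The coefficient was -0.52 ± 0.12, or 1.44-fold lower, with an adjusted p of 0.0032 in limma. At 1 day it was -0.31 ± 0.11 with an adjusted p of 0.0783, and 17 of 20 smoke-exposed mice were below their sham mean.

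Mx1 and Ifi44 also fell at 5 days. Mx1 ran from 4.07 over 4.82 to 5.64 in sham-exposed mice and from 3.24 over 4.30 to 5.28 in smoke-exposed mice, with 18 of 19 smoke-exposed mice below their own sham mean but only 2 below every sham-exposed mouse. Its coefficient was -0.47 ± 0.12 (1.38-fold lower) with an adjusted p of 0.0108 in limma. Ifi44 ran from 6.91 over 7.59 to 8.05 in sham-exposed and from 5.48 over 7.12 to 7.95 in smoke-exposed mice, with 16 of 19 below their own sham mean. Its coefficient was -0.49 ± 0.13 (1.41-fold lower) with an adjusted p of 0.015 in limma. The exposure groups overlapped for both genes. At 1 day the coefficients were -0.25 ± 0.18 for Mx1 and -0.16 ± 0.10 for Ifi44, with adjusted p-values of 0.456 and 0.375. Within a single genotype, neither Oas1a, Mx1 nor Ifi44 passed at 5 days in limma (adjusted p 0.0731 to 0.291), with the sign the same in both genotypes. Within a single sex, Oas1a passed in females (-0.60 ± 0.17, adjusted p 0.0473 in limma), and none of the 3 passed in males.

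Irf7, the transcription factor of the group, was the only member that passed for exposure at 1 day, when 1.07% of all genes tested passed, 0.485% higher and 0.59% lower. The median coefficient of the 9 genes was -0.18 and 7 of the 9 were negative, against 0.01 and 44.3% over all genes. As at 5 days, these signs are not 9 separate results. Irf7 ran from 6.63 over 7.18 to 8.07 in sham-exposed mice and from 6.27 over 6.84 to 7.74 in smoke-exposed mice. Of 20 smoke-exposed mice, 17 lay below their own sham mean, and the groups overlapped. The coefficient was -0.39 ± 0.10 (1.31-fold lower) with an adjusted p of 0.0111 in limma. It stood close to the fold threshold, and omission of any of 8 mice took it under 0.379 while the adjusted p stayed at 0.0202 or below. It measured -0.65 ± 0.14 in females and -0.13 ± 0.14 in males, where 0.884% and 1.25% of all genes passed, but the exposure by sex term had an adjusted p of 0.659 in limma and did not show a difference between the sexes. At 5 days the coefficient was -0.26 ± 0.10 with an adjusted p of 0.139.

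The ubiquitin-like modifier Isg15 and its protease Usp18 did not pass at either duration. Isg15 ran from 7.57 over 7.90 to 8.45 in sham-exposed and from 6.56 over 7.81 to 8.64 in smoke-exposed mice at 5 days, with a coefficient of -0.09 and a 95% confidence interval from -0.30 to 0.12. At 1 day its coefficient was -0.06 (-0.28 to 0.16). Usp18 had the smallest spread between mice of a group of the 9 genes (SD 0.226) and a coefficient of -0.08 (-0.21 to 0.05) at 5 days. At 1 day Usp18 measured -0.18 ± 0.08 with an adjusted p of 0.167 in limma. Without βENaC smoke-exposed male replicate 2, the mouse with the highest value, that was -0.23 ± 0.06 with an adjusted p of 0.0108 and still short of 1.3-fold.

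The RNA-binding proteins Ifit1 and Ifit3 did not pass either. Ifit1 ran from 7.46 over 7.81 to 8.35 in sham-exposed and from 6.46 over 7.70 to 8.26 in smoke-exposed mice at 5 days, with a coefficient of -0.17 (95% confidence interval -0.37 to 0.04). At 1 day it was 0.10 (-0.15 to 0.36). Ifit3 measured -0.22 ± 0.08 at 1 day with an adjusted p of 0.0669 in limma, lower on average in all 4 combinations of genotype and sex, and -0.01 ± 0.08 at 5 days.

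**Figure D2:**
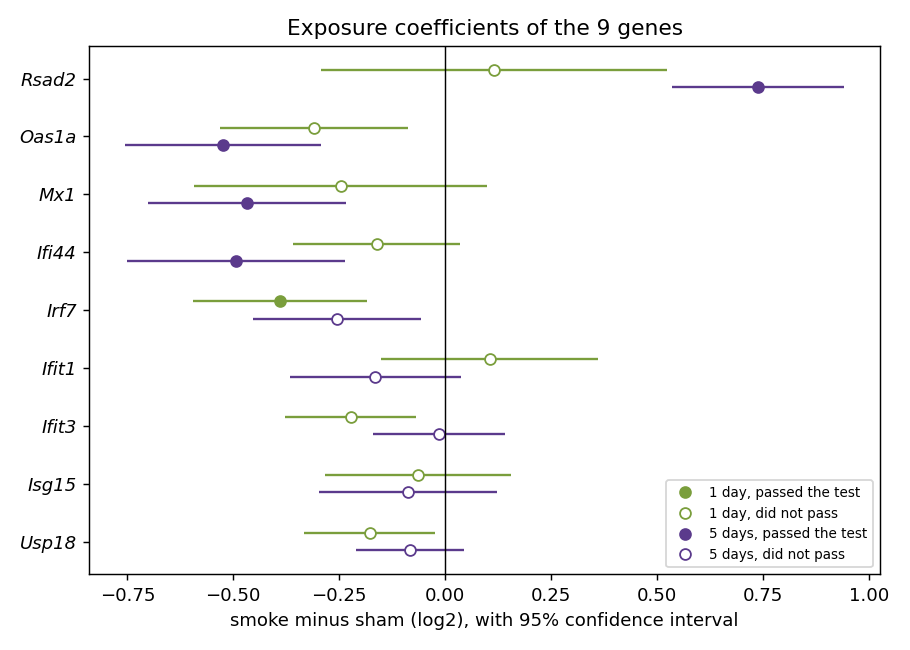
Exposure coefficients (smoke minus sham, log2) of the 9 genes at 1 day (green) and 5 days (purple) with 95% confidence intervals, filled where the gene passed the test. Rsad2 at 5 days lies at 0.74 on the right, and Oas1a, Ifi44 and Mx1 lie between -0.52 and -0.47 on the left.

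Across the 8 groups of genotype, exposure and duration, the order of levels rarely separated neighbours. For Rsad2 the 2 smoke-exposed groups of 5 days came first (means 7.95 ± 0.38 SD in 10 βENaC mice and 7.82 ± 0.54 in 9 WT mice), and the other 6 groups lay between 6.95 and 7.17. For Oas1a the βENaC sham-exposed groups came first (5.36 ± 0.37 and 5.34 ± 0.42) and the WT mice after 5 days of smoke came last (4.57 ± 0.50). In none of the 9 genes did neighbours in the order differ by more than the larger of their SDs. The widest gap between neighbours was 0.65 in Rsad2, below the 2 smoke-exposed groups of 5 days.

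A single member passed for genotype, and at 5 days only. Mx1 was higher in βENaC mice at 5 days, running from 4.07 over 4.53 to 5.64 in 19 βENaC mice and from 3.24 over 4.39 to 5.03 in 20 WT mice. The coefficient was 0.39 ± 0.12 (1.31-fold) with an adjusted p of 0.0275 in limma, and 16 of 19 βENaC mice lay above the WT mean of their exposure and sex. Omission of any of 7 mice ended the call (coefficients down to 0.34, adjusted p up to 0.0551). Within sham-exposed mice the coefficient was 0.43 ± 0.17 and within smoke-exposed mice 0.35 ± 0.17. Neither passed in limma (adjusted p 0.142 and 0.393). At 5 days 2.52% of all genes passed for genotype. At 1 day none of the 9 genes did in limma, against 1.54% of all genes, and 1 of the 9 (Oas1a) had an unadjusted p below 0.05, as did 17.4% of all genes. The Mx1 coefficient was then 0.06 ± 0.18. Oas1a had positive genotype coefficients at both durations (0.25 ± 0.11 and 0.26 ± 0.12) that did not pass, with adjusted p-values of 0.226 and 0.17 in limma.

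Sex moved no member past both thresholds, against 0.836% of all genes at 1 day and 0.198% at 5 days. Ifi44 came nearest, at 0.32 ± 0.10 higher in males at 1 day with an adjusted p of 0.0364 in limma and a change below 1.3-fold, an adjusted p that 9.89% of all genes reached. At 5 days its coefficient was -0.09 ± 0.13. Rsad2 measured 0.37 ± 0.10 higher in males at 5 days with an adjusted p of 0.09, and it and Ifit3 were the members with an unadjusted p below 0.05 for sex at 5 days, as were 11.3% of all genes. No exposure by genotype or exposure by sex term passed for any of the 9 genes at either duration, and over all genes 0.00638% passed each of them at 1 day and 0% at 5 days in limma. Unadjusted p-values below 0.05 were found for exposure by genotype in 1 of the 9 genes at 1 day (Ifi44) and 1 at 5 days (Usp18), and for exposure by sex in 1 (Irf7) and 0. Over all genes that share was 6.98% and 3.82% for exposure by genotype and 6.33% and 3.46% for exposure by sex. The exposure by genotype coefficient was negative in 0 of 9 genes at 1 day and in 1 of 9 at 5 days, against 40.6% and 49.2% of all genes. The median of the 9 was 0.23 at 1 day and 0.14 at 5 days, where the medians of all genes were 0.03 and 0.0017. Most of the 9 genes varied together between mice, so these signs are not 9 separate results. βENaC smoke-exposed male replicate 2 at 1 day lay above its group mean in 8 of the 9 genes. WT smoke-exposed female replicate 2 at 5 days lay below its group mean in all 9. By their direction, these deviations raise the exposure by genotype coefficient of their own duration, except in Ifit3 at 1 day, where the βENaC mouse lay below its group mean. How much these mice contribute to the signs was not tested. No genotype by duration term passed in limma for the 9 genes or any other (0%), and none of the 9 had an unadjusted p below 0.05, which 5.76% of all genes had.

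Upstream of these genes, none of 18 interferon ligand genes passed for exposure or genotype at either duration in limma, where 1.07% and 1.15% of all genes passed for exposure and 1.54% and 2.52% for genotype, so that a count of 0 among 18 genes is near the background. Ifnb1 lay at a mean level of 2.71 and Ifng at 3.28, both under the 4.51 that was the median over all genes, and their exposure coefficients lay between -0.04 and 0.03 at both durations. The receptor genes Ifnar1 and Ifnar2 had exposure coefficients between -0.08 and 0.02. Of the signalling genes, Stat2 measured -0.03 at 1 day and -0.18 at 5 days, and Irf9 measured -0.02 and -0.22 (adjusted p 0.0485 in limma at 5 days), all short of 1.3-fold.

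Among the other genes of the pathway, those that passed for smoke all fell. Of 99 measured genes in 6 lists, 8 fell at 1 day and 5 at 5 days, and none rose, where 0.59% and 0.577% of all genes fell. With no fold threshold, 1 rose and 23 fell at 1 day and 2 rose and 18 fell at 5 days, where 5.03% and 4.43% of all genes rose and fell at 1 day and 3.17% and 3.37% at 5 days. Median coefficients of the 99 were -0.07 and -0.10, and those of all genes were 0.01 and -0.0018. Ifi204, a DNA-binding interferon-inducible protein of myeloid cells, fell at both durations by 0.98 and 0.77 on the log2 scale (adjusted p 0.00281 and 0.00225 in limma). Oas2 (fell by 0.42 and 0.65) and Ifi27l2a (fell by 0.48 and 0.41) also fell at both. Dhx58 (-0.40), Zbp1 (-0.50), Oas1g (-0.54), Epsti1 (-0.40) and the nitric oxide synthase Nos2 (-0.58) fell at 1 day, and the DNA sensor Tlr9 (-0.42) and the chemokine Cxcl10 (-0.45) fell at 5 days. Beside Rsad2, the genes with an adjusted p below 0.05 and a positive coefficient at 5 days were Ube2l6, the conjugating enzyme for Isg15 (0.37, 0.00204 in limma), and the exonuclease Isg20 (0.18, 0.0117). They were singled out after their values were seen. For genotype, 1 of the 99 rose at 1 day (Nos2, 0.51) and 6 rose at 5 days (Nos2 0.57, Oas2 0.54, Ciita 0.54, Cxcl10 0.52, Zbp1 0.51 and Oas1g 0.50), none fell, and 1.13% and 1.87% of all genes rose.

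Between mice of the same group, most of the 9 genes moved as a unit. After the 16 group means were removed, the 28 pairs of the 8 genes other than Ifit3 correlated with Pearson's r between 0.29 and 0.87, median 0.64, over 79 mice. The tightest pair was Isg15 with Ifit1 (r = 0.87, Spearman's rho = 0.85), followed by Usp18 with Ifit1 (0.86 and 0.79) and Irf7 with Isg15 (0.83 and 0.81). Without the 2 mice whose Ifit1 (or, for the last pair, Isg15) deviated farthest, r was 0.82, 0.80 and 0.79. In permutation tests within groups with 100000 resamples, two-sided and adjusted over 45 relations, all 28 pairs had adjusted p-values for r of 0.0217 or below, and these 3 had a p of 1e-05 before adjustment, the smallest these tests can give, and 2.5e-05 after it. Within the 1-day and the 5-day mice the median r of the 21 pairs that leave out Ifit3 and Rsad2 was 0.61 and 0.69. No correlation of Ifit3 with the other 8 genes passed (r from -0.14 to 0.16, lowest adjusted p for r 0.306 in the same permutation tests). The Ifit3 row had a mean level of 5.04 and ran from 4.33 to 5.54 over all mice. Oas1a (5.05) and Mx1 (4.67) lay at similar levels, and the median over all genes was 4.51. The residuals most like those of Ifit3 were of Platr4 (r = 0.48), 1700001K23Rik (0.45), Negr1 (0.42) and Ifi203-ps (0.40). How well this row reads Ifit3 was not tested. The genes outside the 9 whose residuals were most like the mean of the 9 were Oasl2 (r = 0.87), Rtp4 (0.85), Cmpk2 (0.83), Irf9 (0.79), Oas2 (0.78), Eif2ak2 (0.76), Stat2 (0.75) and Ddx58 (0.75), over 79 mice and all on shared arrays.

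**Figure D3:**
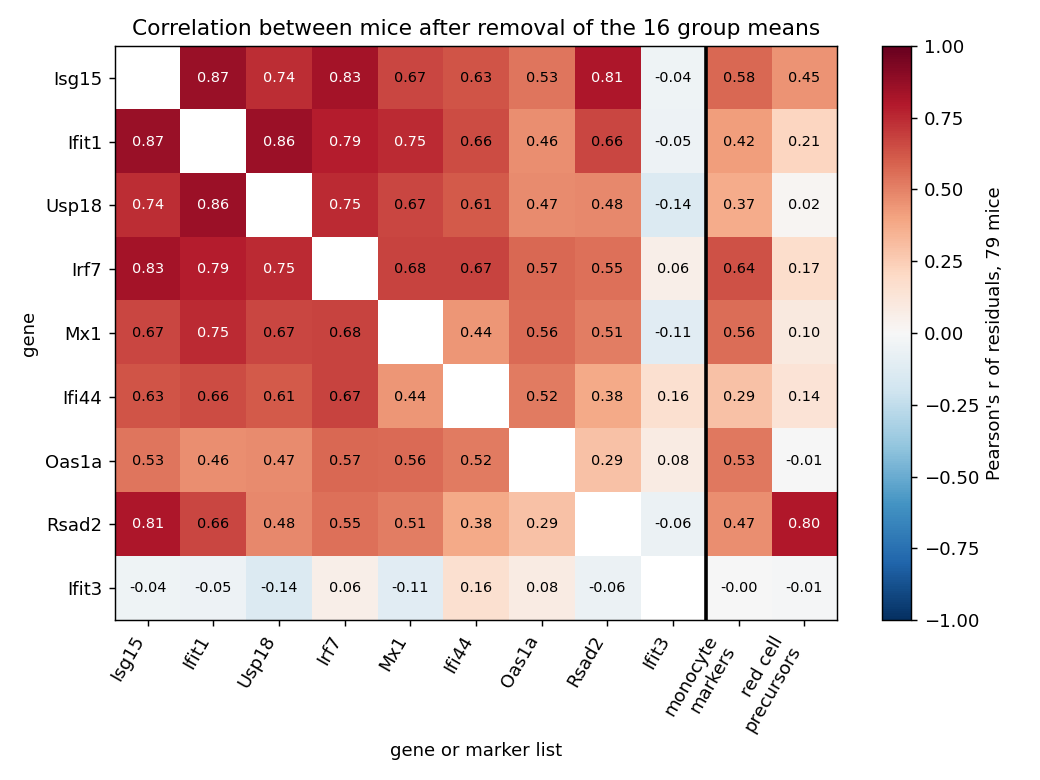
Pearson's r between the 9 genes over 79 mice after removal of the 16 group means, with 2 further columns for the mean of 12 monocyte markers and of 15 red cell precursor markers. Ifit3 stands apart with r from -0.14 to 0.16, and Rsad2 has the highest r with the red cell precursor markers (0.80).

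Rsad2 also varied with genes of red cells. Among the genes most like Rsad2 in its residuals were Isg15 (r = 0.81), Ube2l6 (0.80), Slc4a1 (0.79) and Car2 (0.79), and Slc4a1 encodes band 3 of the red cell membrane. A list of 15 genes of red cell precursors was therefore added after these values were seen, and is described without a test of its relation to Rsad2. Its mean correlated with Rsad2 at r = 0.80 and rho = 0.71 (r = 0.75 without the 2 mice farthest from the median of Rsad2), at 0.81 in 1-day and 0.78 in 5-day mice, and at 0.56 in sham-exposed mice alone. Over all mice that correlation was 0.45 for Isg15, and for the other 7 genes it lay between -0.01 and 0.21. It was uneven between durations. In the 39 mice of 5 days it was 0.46 for Irf7, 0.43 for Isg15, 0.39 for Oas1a, 0.32 for Ifi44 and 0.32 for Mx1. In the 40 mice of 1 day these were 0.04, 0.48, -0.22, 0.03 and 0.02. Of the 15 genes, 8 rose with smoke at 5 days, where 0.577% of all genes rose, and none passed at 1 day, where 1.07% passed. At 5 days Slc4a1 stood at 1.89, Alas2 at 0.96 and Ahsp at 0.94 on the log2 scale. The defining regulators Klf1 and Gata1 stayed near the bottom of the scale (mean levels 3.36 and 3.21) with coefficients of 0.09 and -0.05. The mean of the 15 ran from 4.31 to 5.08 in sham-exposed and from 4.60 to 5.56 in smoke-exposed mice at 5 days, and the 3 mice with high Rsad2 at 1 day had 6.15, 5.79 and 5.06 against a highest sham value of 4.92. With that mean as a covariate the Rsad2 coefficient at 5 days was 0.04 ± 0.12. This is a description only, since the list was chosen for genes that track Rsad2 and was bound to take up part of its coefficient. The marker mean itself moved with smoke, so that smoke and marker level cannot be told apart, and its part in the rise was not tested.

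Monocyte markers fell with smoke at both durations. Monocytes patrol the lung vessels and carry Ly6c2 and Ccr2 (classical) or Treml4, Cx3cr1 and Nr4a1 (nonclassical). Of 5 classical markers 3 fell at 1 day and 2 at 5 days, and of 7 nonclassical markers 3 and 4 fell. Over all genes, 0.59% fell at 1 day and 0.577% at 5 days. The marker lists too were chosen with earlier results of these data known. Treml4 fell by 0.67 and 0.73 and Nr4a1 by 0.51 and 0.70 on the log2 scale. The lowest mean level among the 12 markers was 5.87 (Treml4). The mean of the 12 markers ran from 7.69 over 7.90 to 8.21 in sham-exposed and from 6.93 over 7.58 to 7.83 in smoke-exposed mice at 5 days, and all 39 smoke-exposed mice of both durations lay below the sham mean of their own group. Its residuals correlated with those of Irf7 (r = 0.64, rho = 0.55), Mx1 (0.56 and 0.57) and Oas1a (0.53 and 0.40), with adjusted p-values for r in the same permutation tests of 2.5e-05, 2.5e-05 and 0.00164, and the correlation with Ifi44 did not pass (0.29 and 0.17, adjusted p 0.0741). Without the 2 mice farthest from the median of the gene these were 0.61, 0.60, 0.39 and 0.12. The relation was uneven between subsets. In the 20 sham-exposed mice of 1 day, r was 0.83 for Irf7, 0.83 for Mx1, 0.69 for Oas1a and 0.25 for Ifi44. In the 20 sham-exposed mice of 5 days it was 0.34, 0.55, 0.04 and -0.28, and in all 39 mice of 5 days 0.54, 0.58, 0.52 and 0.40. Members that did not pass as lower tracked the markers too, with r = 0.58 for Isg15 (rho = 0.51), 0.47 for Rsad2 (0.48), 0.42 for Ifit1 (0.37) and 0.37 for Usp18 (0.35), and adjusted p-values for r in the same permutation tests between 8.57e-05 and 0.00259. With the monocyte mean as a covariate the coefficients at 5 days were -0.02 ± 0.14 for Mx1, -0.15 ± 0.15 for Oas1a and -0.15 ± 0.17 for Ifi44, and that of Irf7 at 1 day was -0.06 ± 0.10, none of which passed in limma. The monocyte mean also moved with smoke, so that the same limit applies.

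**Figure D4:**
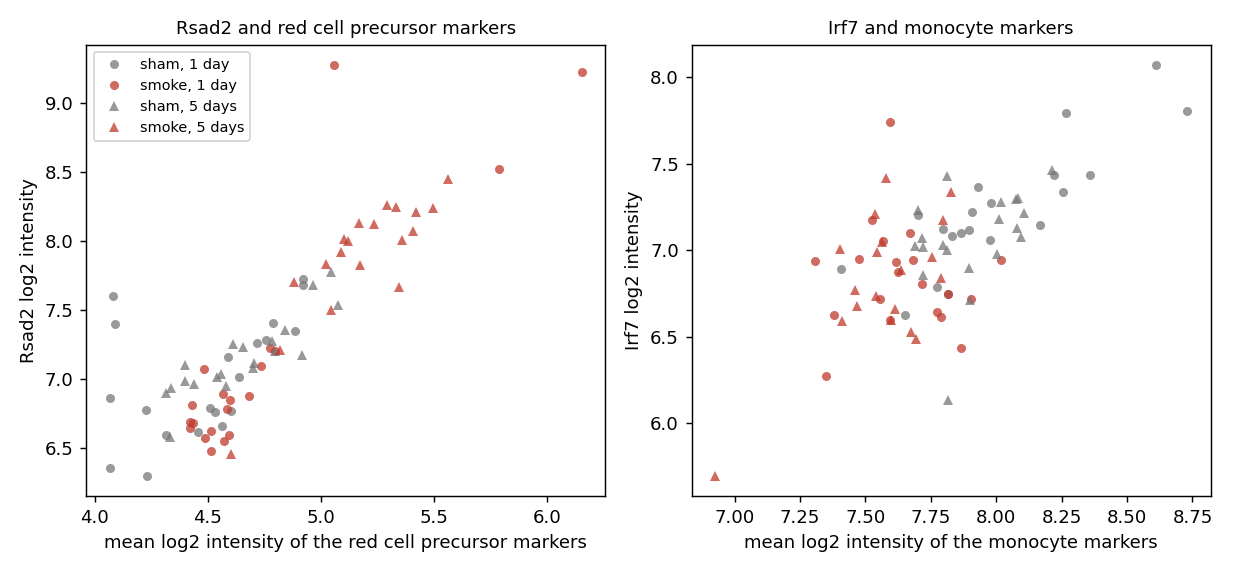
Left, Rsad2 against the mean of 15 red cell precursor markers, and right, Irf7 against the mean of 12 monocyte markers, all in log2 intensity, 1 point per mouse (grey sham, red smoke, circles 1 day, triangles 5 days). Smoke-exposed mice of 5 days lie to the right on the left panel (4.60 to 5.56) and smoke-exposed mice lie to the left on the right panel (6.93 to 8.02).

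The covariates pulled the genes in opposite directions. With the monocyte mean in the model, the Rsad2 coefficient at 5 days was larger (1.16 ± 0.11, adjusted p 5.45e-09 in limma). With the red cell precursor mean, those of Oas1a (-0.90 ± 0.19), Ifi44 (-0.82 ± 0.22) and Mx1 (-0.82 ± 0.20) were larger in size and still passed. Irf7 at 5 days then passed as well, at -0.68 ± 0.16 with an adjusted p of 0.00733. Plasmacytoid dendritic cells, the classic source of type I interferon, had 1 of 5 markers that passed at 5 days, Siglech at -0.38 (adjusted p 0.0115 in limma), and none at 1 day. The residual of the mean of its 5 markers correlated with the 9 genes at r of at most 0.39. Of the other cell types listed, 1 of 5 neutrophil markers fell at 1 day and 2 of 7 alveolar macrophage markers fell at 5 days. No B cell, T and NK cell or lung epithelial and endothelial marker passed at either duration. Over all genes, 1.07% passed at 1 day (0.59% lower) and 1.15% at 5 days (0.577% lower).

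**Figure D5:**
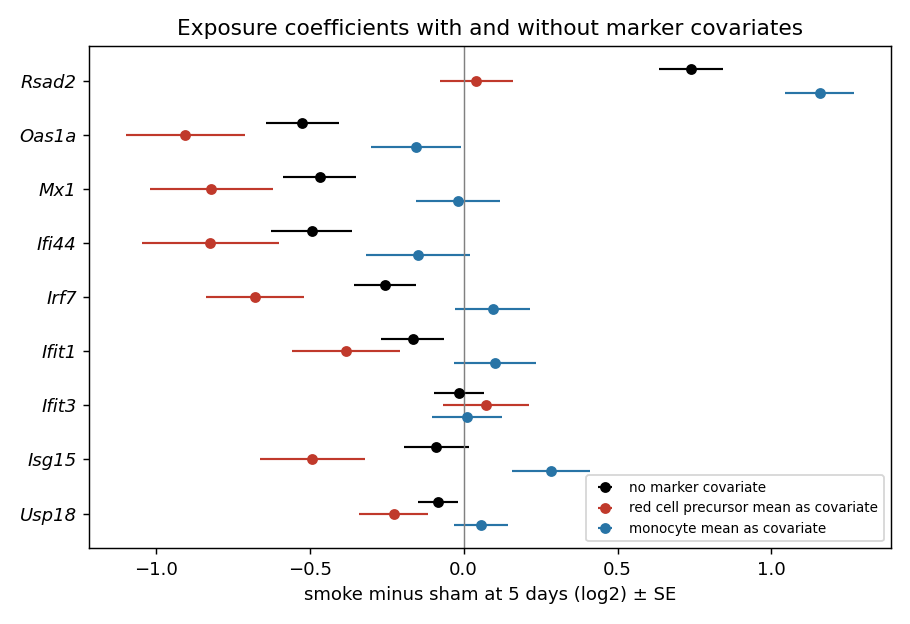
Exposure coefficients at 5 days (smoke minus sham, log2, ± SE) of the 9 genes without a marker covariate (black), with the red cell precursor mean (red) and with the monocyte mean (blue) in the model. Rsad2 moved from 0.74 to 0.04 with the red cell precursor mean, a list chosen because its genes track Rsad2, and Mx1 from -0.47 to -0.02 with the monocyte mean.

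A few mice stood apart from their group in most of the 9 genes at once. WT smoke-exposed female replicate 2 at 5 days lay below its group mean in all 9 genes (mean deviation -0.94) and had B cell, T and NK cell and monocyte marker means that deviated by -1.45, -1.25 and -0.59 and a neutrophil marker mean that deviated by 1.04. Without it, Rsad2, Oas1a (-0.44 ± 0.10), Mx1 (-0.41 ± 0.11) and Ifi44 (-0.40 ± 0.10) still passed at 5 days. βENaC smoke-exposed male replicate 2 at 1 day lay above its group mean in 8 of 9 genes (mean deviation 0.95, Mx1 at 6.93 and Ifit1 at 9.81), with its monocyte marker mean 0.06 above its group. WT sham-exposed female replicate 3 at 1 day lay above its group mean in 8 of 9 genes (mean deviation 0.58), with its classical monocyte mean 0.86 above its group. The SD of this mean deviation over all mice was 0.254.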

How the data were processed

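Gene expression was measured in 79 whole right lungs on Affymetrix mouse arrays, 1 array per mouse. Per the labels and the study's methods, the authors made the deposited log2 intensities by robust multi-array averaging with background correction, correction for probe sequence, quantile normalization, median polish and a custom grouping of probe sets into genes, with Affymetrix Expression Console 1.4 and Partek 6.6 named in the submitters' processing notes, and removed 1 array as mislabelled. Quantile normalization forces all arrays to 1 distribution, so a shift of all genes together would not be seen. The genome build of the gene models and whether lungs were flushed of blood are not given in the sources used here. The number of mice limits the precision.

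Symbols were assigned to 21837 of 31350 genes, 2537 through identifiers in the study's supplementary tables and 19300 through RefSeq, and 5 and 4 of the 9 genes came from each. Every gene was fitted with limma 3.58.1 in R 4.3.3, separately for 1 and 5 days, with exposure, genotype and sex as additive terms (coefficients are smoke minus sham, βENaC minus WT and male minus female), and p-values were adjusted by Benjamini-Hochberg over all 31350 genes. A gene passed at an adjusted p below 0.05 and a 1.3-fold change, and an interaction passed on the adjusted p alone. Confidence intervals are 95% and use the normal approximation. Interactions and the differences between durations came from fits with those terms added. Correlations between mice used deviations from the 16 group means. The script was tested on simulated data. The alternatives were an ordinary linear model, a trended robust prior, array weights, median centring, quantile normalization, omission of the lowest 30% of genes, 1 row per symbol, a replicate block, 1 fit over all mice, other fold thresholds and omission of each mouse.

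The 9 genes and the gene lists were chosen with earlier results of these data known. The named genes were the 9, the checks Scnn1b and Cyp1a1, up to 6 genes per pathway list that passed for exposure or genotype, fixed ligand, receptor and signalling genes, and the 8 genes most like the mean of the 9. Some results under this rule are not reported here. Fits within a genotype, exposure or sex, the red cell precursor list and the fits with marker means as covariates were added after the data were seen.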

Additional observations from a re-analysis of the deposited data

Results flagged for a closer look

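In 20 of 144 combinations of group and gene, the highest or lowest mouse lay far from the other mice of its group by Dixon's criterion, which chance alone meets in about 1 in 20 groups. These values came from 12 mice and are log2 intensities. βENaC smoke-exposed male replicate 2 at 1 day was the highest of its group in Ifit1 (9.81), Isg15 (9.12), Mx1 (6.93), Rsad2 (9.28) and Usp18 (8.53). WT smoke-exposed female replicate 2 at 5 days was the lowest of its group in Isg15 (6.56), Irf7 (5.70), Oas1a (3.34), Mx1 (3.24) and Rsad2 (6.46). Together these mice gave 10 of the 20 values.

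Rsad2 was also far above its group in WT smoke-exposed female replicate 5 (9.23) and βENaC smoke-exposed female replicate 5 (8.52) at 1 day, and far below it in WT smoke-exposed male replicate 3 at 5 days (7.67). Mx1 was far above its group in βENaC smoke-exposed female replicate 3 (5.28) and male replicate 5 (5.18) at 5 days. Among sham-exposed mice of 5 days, WT females had a low Ifit3 in replicate 4 (4.97), a low Irf7 in replicate 3 (6.14) and a high Oas1a in replicate 1 (5.85), and βENaC male replicate 2 had a high Isg15 (8.07). Ifit1 was high in βENaC smoke-exposed female replicate 2 at 1 day (8.17).

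For some smoke effects all mice of a subset moved one way and all mice of another subset the other way, and these differences were not tested. In WT males Rsad2 measured 0.62 higher with smoke at 5 days and differed by -0.21 at 1 day, which is a difference of 0.83 on the log2 scale. In males at 1 day Ifi44 differed by 0.20 with smoke in βENaC mice and by -0.55 in WT mice, which is a difference of 0.74. With both sexes and genotypes in the model, the exposure by duration term of Rsad2 did not pass (adjusted p 0.207 in limma). Nor did the exposure by genotype term of Ifi44 at 1 day (adjusted p 0.65 in limma).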

How the results depend on the processing

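No coefficient of the 9 genes changed sign among those that had passed. With an ordinary linear model, a trended robust prior, median centring, quantile normalization, omission of the lowest 30% of genes, 1 row per symbol or a replicate block, each of the 16 counts and each of the 63 coefficients of the 9 genes examined kept its call. Replicate numbers were shared between groups only as numbers (mean correlation of deviations 0.012 for equal and -0.0027 for unequal numbers), and with the replicate block the count at 5 days was 4, as without it.

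Of the 9 genes, the count that passed for exposure at 1 day was 1. It was 0 at a 1.5-fold threshold, with array weights, with the monocyte covariate and with the red cell precursor covariate, and 0 to 1 when single mice were left out. At 5 days it was 4, and 1 at 1.5-fold and with the monocyte covariate. With the red cell precursor covariate, a list chosen because its genes track Rsad2, Rsad2 no longer passed and Irf7 did. For genotype at 5 days it was 1, and 0 in 1 fit over all mice, at 1.5-fold and with array weights, and 0 to 1 when single mice were left out. In the fit over all mice the exposure coefficient of Mx1 at 5 days had an adjusted p of 0.0526 in limma. For sex at 1 day it was 0, and 1 with no fold threshold. Of the 99 other pathway genes, the counts at 1.5-fold and with no fold threshold were 1 and 24 for exposure at 1 day, 2 and 20 at 5 days, 0 and 7 for genotype at 1 day, and 0 and 15 at 5 days, against 8, 5, 1 and 6. With single mice left out these ran from 5 to 10, 4 to 7, 1 to 2 and 5 to 8. Where a fold threshold changed a count, the threshold itself is the cause, and elsewhere the cause was not tested. Fits to other rows of a symbol were not run, since each of the 9 genes has 1 row.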
